A study of Mus musculus with 8 samples.

Results

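The beta crystallins are a family of lens proteins, and the array measured 6 of their genes, Cryba1, Cryba2, Cryba4, Crybb1, Crybb2 and Crybb3, in whole retinas of aged mice. Their probes were found by matching the accession given for each probe to the RefSeq gene table, which yielded 6 genes of 22911 named on the array and 7 of its 56605 probes, 2 for Crybb2 and 1 for each of the other 5 genes. Retinas of homozygous Mrp4 knockout mice (Mrp4-null) were compared with those of wild-type (WT) mice to learn how the loss of MRP4, an efflux transporter encoded by Abcc4, affects the aging retina. Per the labels all mice were 46 to 55 weeks old, and per the methods the knockout was kept on a C57BL/6J background. Each genotype had 4 samples, each on 1 one-color array. The methods mention 3 mice without making clear if their retinas were pooled in a sample, so the p-values measure the spread between these samples only. Because whole retina was used, fewer cells of a type and less RNA per cell cannot be told apart.

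Values are processed signals in arbitrary units as the scanner software gave them, or log2 signals after quantile normalization of 37085 probes, kept when they were well above background wherever measured in one genotype or the other. Brightness differed between arrays, with a 75th percentile of 678 on Mrp4-null array 2 and 706 on WT array 3, against 781 to 1082 on the other arrays. The 8 arrays shared 1 slide on which the genotypes occupied separate rows, so row and genotype cannot be told apart. The probe of Abcc4 was higher under the knockout label, at 10.75 ± 0.09 (SD, n = 4 arrays) against 6.83 ± 0.29 (SD, n = 4) on the log2 scale, and the directions below follow the labels as deposited. The markers of the labeled tissue were detected. All 39 listed genes of rods, cones, bipolar cells, Muller glia, ganglion cells and amacrine or horizontal cells were well above background on every array. On single arrays 66.0% to 69.9% of all probes were so too. Averaged over the arrays, at least 65.0% of probes were dimmer than each of these markers.

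Crystallins are the main soluble proteins of the lens and give it its transparency and refractive power. Beta crystallins are built from repeated Greek key folds that they share with the gamma crystallins, associate into dimers and larger complexes, and are divided into acidic (Cryba) and basic (Crybb) members. Transcripts of the family have also been described in the neural retina, at far lower levels than in the lens, and mutations in several of these genes cause cataract.

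Among the acidic members, Cryba1, whose single mRNA is translated into a pair of beta crystallins from alternative start sites, had processed signals of 286, 113, 873 and 2003 on Mrp4-null arrays 1 to 4. On WT arrays 1 to 4 its signals were 1625, 4665, 395 and 916. The highest WT array was 41.2-fold above the lowest Mrp4-null array, but Mrp4-null array 4 lay above 3 of the 4 WT arrays. Cryba2, which encodes an acidic beta crystallin, was at 229, 136, 701 and 1544 on the Mrp4-null arrays and at 1608, 3899, 411 and 727 on the WT arrays. Cryba4, another acidic member and a cataract gene, was at 125, 71.6, 300.4 and 564 on the Mrp4-null arrays and at 656, 1442, 178 and 308 on the WT arrays. For each of these 3 genes WT array 2 was the highest and Mrp4-null array 2 the lowest, and the genotypes overlapped.

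Among the basic members, Crybb1, a cataract gene whose protein is trimmed at its end as the lens ages, had signals of 97.0, 61.9, 180.4 and 296 on the Mrp4-null arrays and 327, 757, 110.02 and 181 on the WT arrays. Crybb2 encodes the most abundant beta crystallin of the mature mammalian lens and was measured by probes A_55_P2082376 and A_66_P107864. The first had signals of 248, 165, 920.3 and 1567 on the Mrp4-null arrays and 1849.6, 3853, 431 and 709 on the WT arrays. The second had signals of 109, 83.7, 281 and 449.7 on the Mrp4-null arrays and 442, 1009, 184 and 235 on the WT arrays. Both probes placed Mrp4-null arrays 1 and 2 at the bottom and WT array 2 at the top. Crybb3, also a cataract gene, was at 83.2, 57.9, 204 and 235 on the Mrp4-null arrays and at 258, 659.7, 93.0 and 146 on the WT arrays. The plot of signals by array shows the 7 probes running side by side. All 56 readings of the 7 probes were well above background, and 0 were saturated or marked as outliers.

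**Figure D1:**
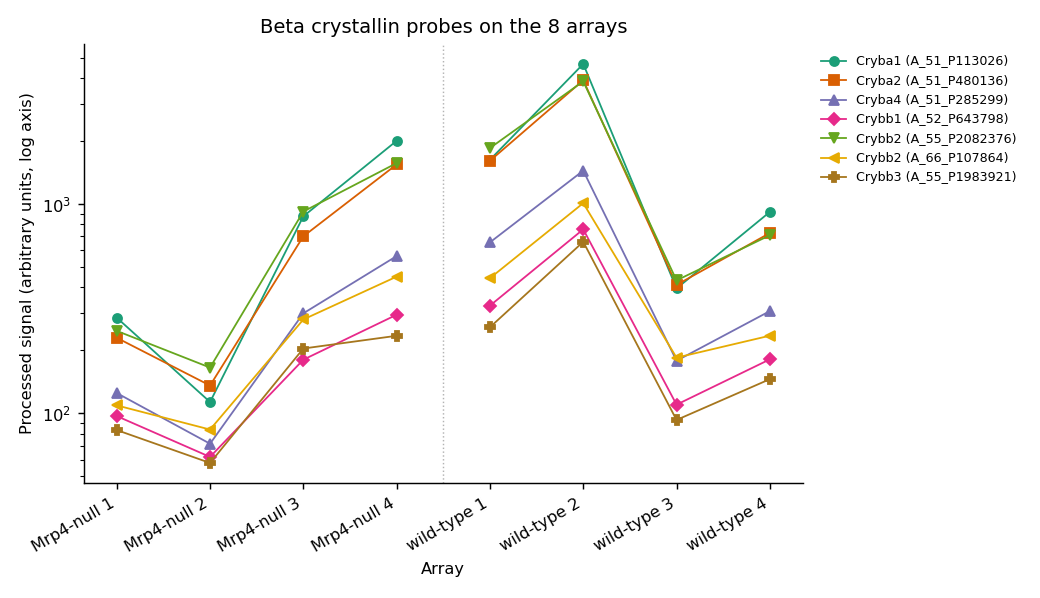
Processed signal (arbitrary units, log axis) of the 7 beta crystallin probes on the 4 Mrp4-null and 4 wild-type arrays; lines join the readings of 1 probe and imply no order of arrays. All 7 probes were highest on wild-type array 2, and their signals spanned 11.4-fold to 41.2-fold over the 8 arrays.

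Within a single genotype the spread was wide as well. Over the 4 Mrp4-null arrays the highest processed signal, not normalized between arrays, was between 4.05-fold (Crybb3) and 17.7-fold (Cryba1) above the lowest. Over the 4 WT arrays the corresponding range was 5.47-fold (the second Crybb2 probe) to 11.8-fold (Cryba1). When each probe was centered on its own mean, probes of a gene were averaged and the 6 genes were then averaged, the family's mean log2 signal was -1.47, -1.77, -0.08 and 0.76 on Mrp4-null arrays 1 to 4 and 0.87, 1.97, -0.48 and 0.22 on WT arrays 1 to 4. By this mean, which was taken from normalized signals, Mrp4-null array 4 was 5.78-fold above Mrp4-null array 2. WT array 2 was 5.45-fold above WT array 3, while the WT mean was 2.44-fold above the Mrp4-null mean. Genotype accounted for 30.7% of the variance of the family mean over the 8 arrays, and for 26.2% (Crybb3) to 33.9% (Cryba4) of that of single probes.

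To learn whether beta crystallin expression differed between the genotypes, each probe was tested with limma over all 37085 retained probes, with p adjusted by the Benjamini-Hochberg method. To be called changed, a probe had to pass both 1.5-fold and an adjusted p of 0.05. All 7 beta crystallin probes were lower on average on the Mrp4-null arrays, as were 53.2% of all retained probes, and 0 of the 7 were called changed, against 0.545% of all retained probes (0.289% lower). The mean differences of the 7 were thus not distinguishable from the spread between replicates by this test.

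Cryba2 had the largest mean difference, with a normalized log2 signal of 8.68 ± 1.43 (SD, n = 4) on the Mrp4-null arrays and 10.23 ± 1.13 (SD, n = 4) on the WT arrays. The difference, Mrp4-null minus WT, was -1.55 with a standard error of 0.76, and limma gave it an adjusted p = 0.860, so the WT mean was 2.92-fold higher with a 95% confidence interval of 0.876 to 9.74. Cryba1 was at 8.86 ± 1.65 (SD, n = 4) against 10.36 ± 1.22 (SD, n = 4), which differed by -1.50 with a standard error of 0.86 and a limma adjusted p = 0.942. Cryba4 was at 7.55 ± 1.18 (SD, n = 4) against 8.93 ± 1.04 (SD, n = 4), which differed by -1.38 with a standard error of 0.66. With an adjusted p of 0.838 from limma, Cryba4 came closest to the threshold, and it was still far from it.

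For the basic members the same difference was -1.40 (standard error 0.75) at the first Crybb2 probe and -1.12 (standard error 0.55) at the second. It was -1.09 (standard error 0.54) for Crybb1 and -0.94 (standard error 0.54) for Crybb3, whose means of 6.88 ± 0.85 (SD, n = 4) and 7.82 ± 0.97 (SD, n = 4) lay closest together. Their adjusted p-values from limma were between 0.855 and 0.944. The interval for Crybb3 ran from a WT mean 0.817-fold that of the Mrp4-null arrays to one 4.49-fold higher and thus covered both directions. The plot by genotype shows the overlap for each probe.

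**Figure D2:**
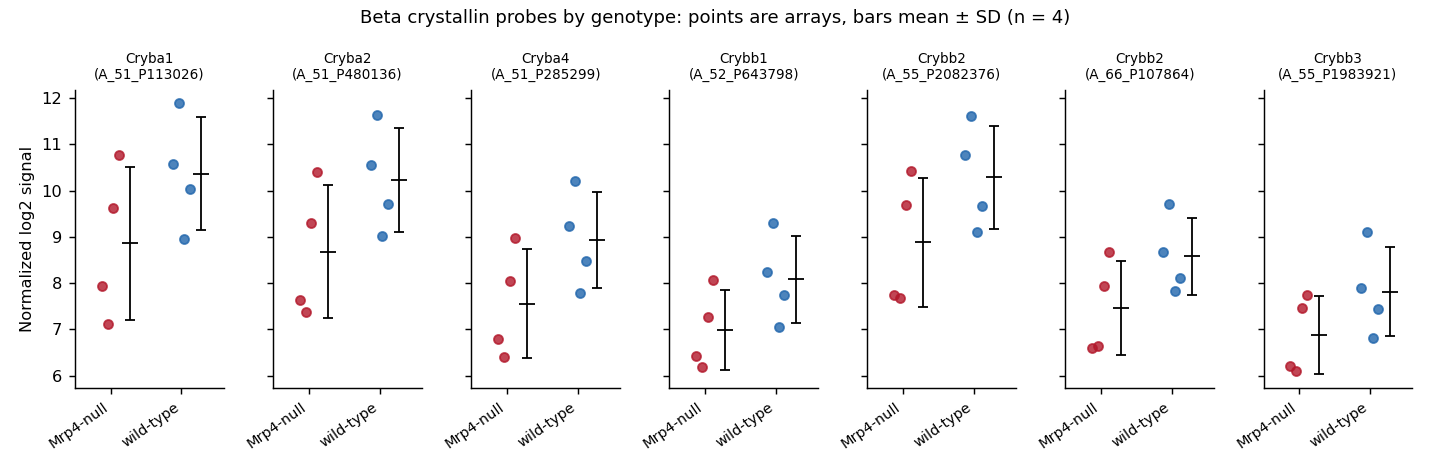
Normalized log2 signal of each beta crystallin probe on the Mrp4-null (red) and wild-type (blue) arrays; points are arrays and black bars the mean and SD (n = 4). The mean was lower on the Mrp4-null arrays for all 7 probes, and the arrays of the genotypes overlapped for all 7.

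By size alone all 7 probes passed a fold change of 1.5, as did 1.88% of all retained probes in either direction and 0.801% toward lower signals on the Mrp4-null arrays. The arrays of the genotypes overlapped for all 7, whereas they did not overlap for 4.79% of all retained probes, 2.36% lower on the Mrp4-null arrays. An unadjusted p under 0.05 was found for 0 of the 7 and for 6.46% of all retained probes by limma, 2.94% lower on the Mrp4-null arrays. In exact two-sided permutation tests over the 70 groupings of 4 and 4 arrays, single probes gave p between 0.143 and 0.20, where the smallest p the design allows is 0.0286.

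The call depended on the test. The local pooled error (LPE) test, which the methods name and which takes the error of a probe from other probes of like intensity, called 6 of the 7 probes lower on the Mrp4-null arrays, against 0.329% of all retained probes in that direction and 0.626% in either. With Benjamini-Hochberg adjustment the LPE test gave adjusted p = 1.11e-11 for Cryba2, 5.06e-10 for Cryba1, 1.05e-09 and 0.00150 for the probes of Crybb2, 5.58e-07 for Cryba4 and 0.00119 for Crybb1, while Crybb3 was not called (adjusted p = 0.119). With the LPE p left unadjusted all 7 probes passed, Crybb3 included, against 0.666% of all retained probes toward lower signals and 1.43% in either direction. The SD between arrays of the same genotype was 0.90 (Crybb1) to 1.45 (Cryba1) on the log2 scale, and 99.7% to 99.95% of all retained probes had a smaller one. Among the 370 or 371 retained probes closest in level to each member, the median SD was 0.16 to 0.21, so the members varied 4.27 (Crybb3) to 9.31 (Cryba1) times as much as the typical probe of their level.

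**Figure D3:**
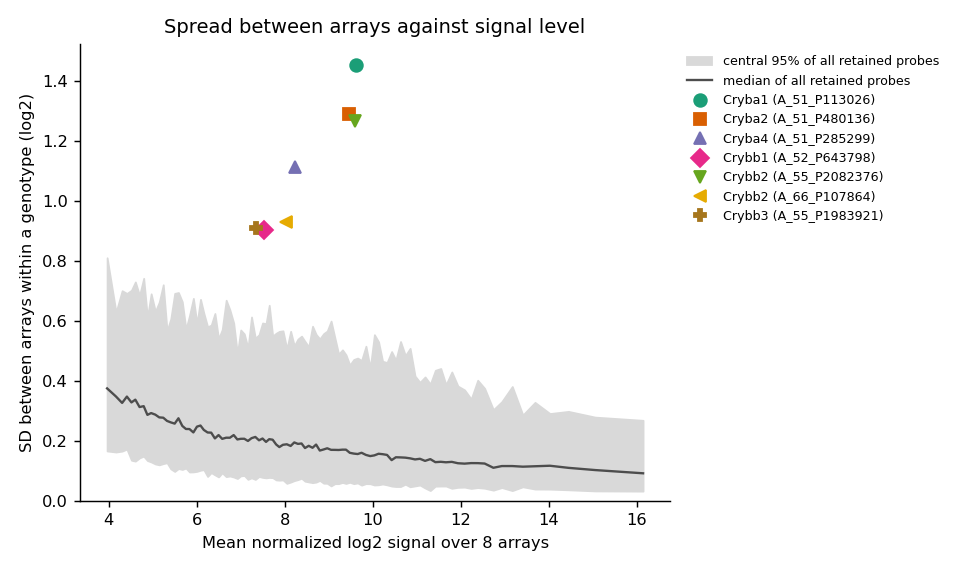
SD between arrays within a genotype (log2) against the mean normalized log2 signal. The line is the median and the band the central 95% of all retained probes in 100 bins of level; the 7 beta crystallin probes lie above the band, at an SD of 0.90 to 1.45.

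The 7 probes moved together from array to array. Over the 8 arrays, Pearson's r between probes of different beta crystallin genes was 0.971 to 0.998 with a median of 0.985 (20 pairs), and Spearman's rank correlation was 0.952 to 1. With the genotype means taken out, r was still 0.960 to 0.997, with a median of 0.980. These values are descriptions over 8 arrays that share a slide and a normalization, and the probes are not independent of each other. The lowest agreement of any probe with the mean of the other genes was that of Crybb3, at r = 0.982, and the highest was that of Cryba4, at r = 0.998.

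In rank, WT array 2 came first and WT array 3 sixth for every one of the 7 probes. WT array 1 and Mrp4-null array 4 shared ranks 2 and 3, WT array 4 and Mrp4-null array 3 shared ranks 4 and 5, and Mrp4-null arrays 1 and 2 shared ranks 7 and 8. Neighbors in this order thus came from opposite genotypes at ranks 2 and 3 and at ranks 4 and 5. Cryba2, Cryba4 and Crybb1 had exactly the same order of arrays.

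The size of the movement differed between members. For each unit of log2 change in the mean of the other genes, Cryba1 changed by 1.31 units, Cryba2 by 1.20, Cryba4 by 1.02, Crybb1 by 0.78 and Crybb3 by 0.74. Crybb2 changed by 1.1 at its first probe and by 0.83 at its second, so probes of a single gene differed about as much in this respect as probes of different genes. After normalization, the ratio between members of different genes stayed within 1.35-fold (Cryba2 and the first Crybb2 probe) to 4.07-fold (Cryba1 and Crybb3) over the 8 arrays, although each probe alone spanned 8.04-fold to 27.5-fold. The movement of the other genes left 0.461% (Cryba4) to 3.63% (Crybb3) of a probe's variance.

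The genes that moved together lie on 3 chromosomes (GRCm38.p6). Cryba1 is on chromosome 11 and Cryba2 on chromosome 1. The other 4 are on chromosome 5. Cryba4 and Crybb1 are direct neighbors there, and their gene models overlap in the RefSeq gene table. The start sites used for their promoters below, 1 per gene, lie apart and on opposite strands. Crybb2 and Crybb3 are direct neighbors separated from that pair by 10 protein-coding genes. Cryba2 and the first Crybb2 probe, which are on different chromosomes, kept the most constant ratio of all pairs of different genes, within 1.35-fold. With the second Crybb2 probe the ratio of Cryba2 spanned 2.28-fold. That of Crybb1 and Crybb3, both on chromosome 5, spanned 1.43-fold.

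The promoters of the members were also compared, and a part of their motifs in the joint movement was not tested. RefSeq start sites (GRCm38.p6) were found for all 6 genes, and the 250 bases before each start were searched on both strands. The half-site TGCTGA, bound by Maf proteins, which are activators of crystallin genes in the lens, was found in 5 of the 6 windows (not in that of Crybb2) and in 16.1% of 32851 promoter windows of that length. Its extended form TGCTGAC, which contains the shorter one, was found in those of Cryba1, Cryba4 and Crybb1 and in 3.81% of all windows. The TATA box TATAAA was found before Cryba1 and Crybb1 and in 12.4% of all windows, and the Sox core ACAAAG before Cryba1, Crybb1 and Crybb3 and in 16.5%. The heat shock pair GAANNTTC was in none of the 6 windows and in 6.69% of all. A match is a stretch of letters, and binding was not measured. The last 150 bases before the start of the 3 genes with the extended half-site, chosen because these promoters hold it, were as follows, with TGCTGA and TATAAA in capitals.
Cryba1, chr11:77725294-77725443, minus strand: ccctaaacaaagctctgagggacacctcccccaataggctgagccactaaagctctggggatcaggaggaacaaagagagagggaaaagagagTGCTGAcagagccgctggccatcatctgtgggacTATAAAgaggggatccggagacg
Cryba4, chr5:112252519-112252668, minus strand: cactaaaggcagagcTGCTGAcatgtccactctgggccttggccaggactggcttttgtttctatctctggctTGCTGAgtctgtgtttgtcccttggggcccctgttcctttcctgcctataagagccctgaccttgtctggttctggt
Crybb1, chr5:112255670-112255819, plus strand: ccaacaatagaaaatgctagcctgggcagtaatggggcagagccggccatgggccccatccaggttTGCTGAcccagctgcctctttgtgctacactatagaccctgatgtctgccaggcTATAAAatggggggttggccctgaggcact
In these windows the half-site began 57 bases before the start of Cryba1 and 84 before that of Crybb1. Cryba4 held it 3 times in its 250 bases, at 182, 135 and 77 bases before the start.

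Other genes of the lens were followed through lists of alpha crystallins, gamma crystallins and lens fiber genes. Cryaa, the lens alpha crystallin, tracked the beta crystallins most closely of all genes outside the family, with r = 0.996 over the 8 arrays at its brighter probe. It spanned 17.0-fold over the arrays and differed by -1.44 between the genotypes on the log2 scale, with a standard error of 0.77 and a limma adjusted p = 0.915. Cryab, the small heat shock protein that is also made outside the lens, spanned 2.59-fold, with r = 0.924.

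Of the 8 gamma crystallins, which share the Greek key fold, 4 had a retained probe. Crygs, the gamma crystallin of the adult lens cortex, had r = 0.982 and spanned 10.8-fold, while Cryga, Crygc and Crygd had r = 0.562 to 0.800 at their brightest probes. The probes of Crygc disagreed in size: its brighter one, A_55_P1955364, differed by -0.54 between the genotypes, and its dimmer one, A_55_P1975275, by -1.53 (limma adjusted p = 0.173) with r = 0.669. At the dimmer probe every WT array was above every Mrp4-null array, which held for 2 of the 18 retained alpha, gamma and fiber probes and for 2.36% of all retained probes. Crygb was well above background on 3 WT arrays and 0 Mrp4-null arrays, Crygn on 2 WT arrays, and Cryge and Crygf on 0 arrays. The summed normalized signal of the 4 retained genes was 155 to 304 on the Mrp4-null arrays and 187 to 663 on the WT arrays.

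Of the 12 lens fiber genes, 8 had a retained probe. The water channel gene Mip, well above background on 4 WT and 2 Mrp4-null arrays, had r = 0.966, the fiber membrane gene Lim2 0.972 and the lens galectin gene Grifin 0.969. The beaded filament genes Bfsp1 and Bfsp2 had 0.764 and 0.918 at their brighter probes, whereas Lenep had 0.140 and spanned 1.25-fold. The fiber connexin gene Gja3 was well above background at 1 of its 2 probes, on Mrp4-null array 4 and WT arrays 1 and 2, and the fiber nuclease gene Dnase2b on 0 arrays. Birc7 was above it on WT array 2 alone. The summed signal of the 8 genes, most of it from the RNA granule gene Tdrd7 with its span of 1.38-fold, was 33989.5 to 45574 on the Mrp4-null arrays and 37906 to 47215 on the WT arrays. Limma called 0 retained genes of these 3 lists changed, with an unadjusted p under 0.05 for 0 of the 2 alpha crystallins, 2 of the 4 gamma crystallins and 3 of the 8 fiber genes, against 6.46% of all retained probes. These counts take the brightest probe of each gene. The LPE test called Cryaa, Crygs and the fiber genes Bfsp1, Bfsp2, Lgsn and Lim2 at that probe, and Crygc at its dimmer one, against 0.626% of all retained probes (0.329% lower). It also called Mip, which was kept through the WT arrays and was not well above background on Mrp4-null arrays 1 and 2, so that call carries no weight here. The median log2 fold change was -0.89 for the 2 alpha crystallins and -0.45 for the gamma crystallins, beside -0.0099 over all 16093 named genes tested. For the fiber genes it was -1.41, with Mip, kept through the WT arrays, still counted. Of the 18 retained probes of these 3 lists, 9 had r over 0.9 with the beta crystallins and 9 did not. Tdrd7 (0.558) and the glutamine synthetase-like gene Lgsn (0.745) were among the latter. Among the former were Mip and the dimmer Cryaa probe, whose r rests in part on readings near background on Mrp4-null arrays 1 and 2. The part that lens tissue in the samples had in the differences between arrays was not tested.

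**Figure D4:**
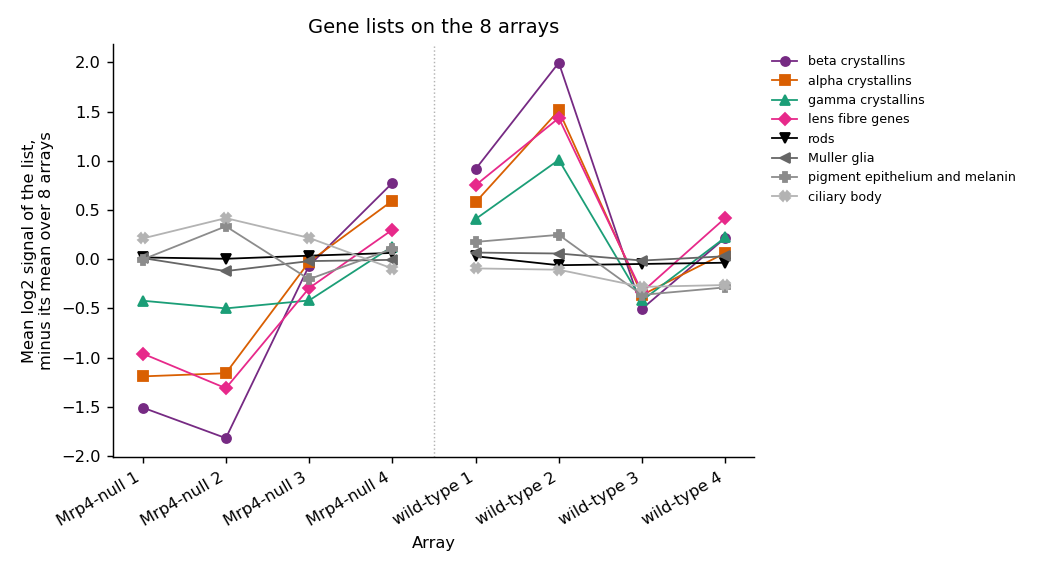
Mean normalized log2 signal of 8 gene lists on each array, minus the list's mean over the 8 arrays; lines join the arrays of 1 list within a genotype and imply no order. The 4 lens lists were highest on wild-type array 2, and the rod and Muller glia lists spanned 0.12 and 0.19 over the 8 arrays.

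Retinal genes varied far less. The 39 retinal marker genes spanned between 1.11-fold and 1.85-fold over the 8 arrays, with a median of 1.26-fold. The mean log2 signal of the 7 rod genes, among them Sag, spanned 0.12, against 3.81 for the beta crystallins. The mean of the 6 Muller glia genes went with the family at r = 0.743 but spanned 0.19, and that of the 6 endothelial genes had r = 0.701 and spanned 0.60. Lists for other tissues that can adhere to a dissected retina were followed in the same way. The list of 9 retained pigment epithelium and melanin genes had r = 0.115, the 5 ciliary body genes -0.619, the 4 corneal genes -0.503, the 4 skeletal muscle genes -0.187 and the 3 blood genes -0.028. In the ciliary body list Optc, which encodes opticin, was higher on the Mrp4-null arrays by 1.53 log2 units (limma adjusted p = 0.158). Its genotypes did not overlap, as for 4.79% of all retained probes in either direction. The other genes of that list differed by -0.06 (Mab21l2) to 0.38 (Wfdc1). Optc was the 1 gene that the LPE test called in these lists of other tissues, against 0.626% of all retained probes.

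Of the 14 transcription factors of lens and crystallin genes, 13 had a retained probe, and the lens factor Foxe3 did not. Their r with the beta crystallins ran from -0.789 (Prox1) to 0.708 (Pax6), with a median of 0.127. Maf, the founding member of the Maf family, had r = 0.233 and differed by -0.05 between the genotypes. None of the 13 was called changed by limma or by the LPE test, against 0.545% and 0.626% of all retained probes. An unadjusted p under 0.05 by limma was found for 0 of the 13 and for 6.46% of all retained probes. The 3 Crybg genes encode larger proteins with beta/gamma crystallin domains outside the lens. Among them limma called Crybg2 higher on the Mrp4-null arrays, by 1.07 on the log2 scale (adjusted p = 0.00253). The LPE test called 0 of the 3, and the shares of all retained probes are those just given. Crybg2 had r = -0.385 with the beta crystallins.

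**Figure D5:**
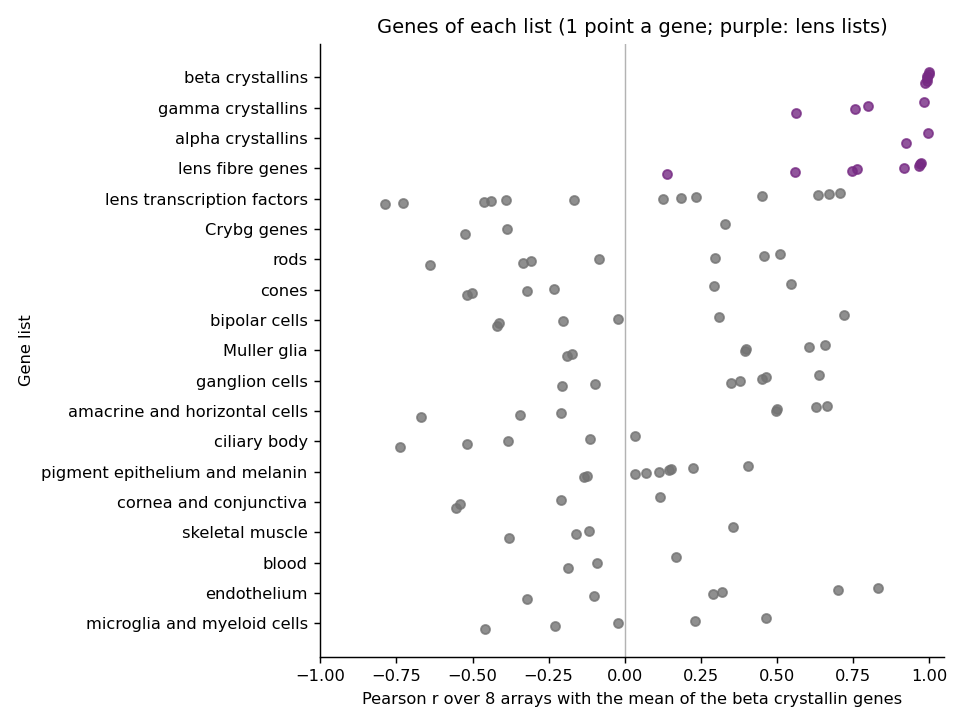
Pearson's r over the 8 arrays between each listed gene, by its brightest retained probe, and the mean of the 6 beta crystallin genes; purple marks the lens lists. The beta crystallins, from which this mean was made, lie at 0.986 to 0.998. Against the mean of the other genes their probes had r of 0.982 to 0.998. The alpha crystallins lie at 0.924 and 0.996, and the retinal lists on both sides of 0.

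Across all 37074 retained probes with varying values on all arrays, 56 (0.151%) had r over 0.9 with the mean of the beta crystallin genes, a count that includes the 7 beta crystallin probes from which this mean was made. The 10 genes most like the family, by their most similar probe, were Cryaa, Crygs, Lim2, Grifin, Mip, Gm11837, Sec11a, Pam, D10Wsu102e and Nlrp5-ps, with r from 0.996 down to 0.946. The first 5 are lens genes. Gm11837 spanned 3.54-fold and Nlrp5-ps 2.75-fold, whereas Sec11a, a signal peptidase subunit, Pam, a peptide-amidating enzyme, and D10Wsu102e spanned 1.26-fold to 1.28-fold. At the other end, Utrn, a cytoskeletal linker, had r = -0.979 and spanned 1.46-fold, followed by Hs1bp3, Mrpl57, Nfatc4 and Sema5b at -0.960 to -0.947. Outside the family, 103 retained probes spanned at least as much as the least variable beta crystallin probe, and 5 of these also had r over 0.95. Those 5 were the probes of Mip and Lim2, that of Crygs and both of Cryaa. Mip and the dimmer Cryaa probe were not well above background on Mrp4-null arrays 1 and 2, so their spans rest in part on readings near background, and the other 3 were well above it on all 8 arrays.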

How the data were processed

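Retinal RNA of 4 Mrp4-null and 4 wild-type samples was hybridized to 8 one-color arrays. The authors deposited the scanner output, from Agilent Feature Extraction 11.0.1.1, with the signal intensity of each spot background-subtracted and detrended within the array and not normalized between arrays, and with flags per spot. A deposited table of intensity values held the mean processed intensity per probe, outlier spots included. Because the array was designed on an earlier build, the RefSeq gene table (GRCm38.p6) served only for names, gene order and promoters.

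Control spots and outlier spots (78 to 143 per array) were left out, log2 signals were averaged per probe, and retained probes were normalized by the quantile method, as in the methods. The methods removed probes with Flag A, and here a probe was instead kept when well above background wherever measured in one genotype or the other. It needed at least 3 measured arrays in the genotype that passed it and 2 in the other. Accessions matched the table for 32994 probes (58.3%), and other probes were not named. R 4.3.3, limma 3.58.1 (genotype as the only term), Python 3.11.15 and an LPE test written for this work (100 bins, spline of 10 degrees of freedom) were used and tested on simulated data. Protein sequences were not used here, and some listed genes are not reported here. The members and gene lists were chosen with earlier results of these data known. Named genes were all members, Abcc4, list genes, and the 10 most and 5 least similar genes by Pearson's r. Precision is limited by having 4 arrays per genotype. Alternatives covered normalization, background (normexp, offset 50), filters, outlier spots, the deposited table, test, threshold, replicate block and arrays left out.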

Additional observations from a re-analysis of the deposited data

Results flagged for a closer look

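Mrp4-null array 2 stood apart from the other 3 of its genotype in its 75th percentile of signal, at 678 against 1000 to 1058, a gap to the nearest array of 0.846 of the whole range. Of 18 groups of 4 arrays screened in this way, 14 of them for single beta crystallin probes, this was the 1 group past the 95% critical value of Dixon's test. Chance gives about 1 in 20. The largest such ratio for a beta crystallin probe or for the family mean was 0.552, below that value. The part of the low signal of Mrp4-null array 2 in its low beta crystallin values was not tested. WT array 3, the other array with a low 75th percentile, was sixth of 8 for all 7 probes.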

How the results depend on the processing

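In 18 alternative fits with limma, all 126 values of the 7 probes were lower on the Mrp4-null arrays, with log2 fold changes of -2.13 to -0.51, and 0 were called (smallest adjusted p = 0.514). The count of 0 called members moved with the LPE test, which called 6, or 7 with p unadjusted (a choice made after seeing the data), and with the fold change of 1.5 alone, which 7 passed. With 1 array left out, the median log2 fold change of the 7 probes was between -1.85, without Mrp4-null array 4, and -0.92, without Mrp4-null array 2, against -1.38 with all arrays, and the number of members called was 0 to 0. An unadjusted p under 0.05 (limma) was reached by 6 members without Mrp4-null array 4 and by 6 without WT array 3, against 6.60% and 5.68% of all probes retained in those fits. The median r between members was 0.976 by Spearman's rank correlation against 0.985 by Pearson's r, and 0.983 to 0.990 with 1 array left out. Over all retained probes the count of calls went from 202 to 71 with the replicate block, to 532 with the unadjusted LPE test, to 699 by the fold change alone, to 117 to 188 with 1 array left out, and to 128 without Mrp4-null array 2 and WT array 3, also chosen after seeing the data. Sample numbers did not pair the samples (r of same-numbered deviations -0.685 to 0.409), and the replicate block called 0 members, with a median of -1.38. The causes were not tested. All readings of the members were well above background.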
